A study of Danio rerio with 9 samples.

Results

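Cytochrome c oxidase is the last enzyme of the mitochondrial respiratory chain, and 3 of its nuclear subunit genes, cox4i1l, cox4i2 and cox6b1, are described here in brain neurons of adult zebrafish after spinal cord transection. They were chosen from their changes between the same groups of arrays, in which the subunit 4 genes cox4i1l and cox4i2 had gone in opposite directions, so their values are given as a description with no test. Each of the 3 genes had 1 probe set in the platform annotation, none with a suffix for cross-hybridization, out of 8793 named genes and 15502 probe sets tested. The annotation named 16 genes for subunits of this enzyme, and no probe set in it carried the name cox4i1.

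Fish of both lesioned groups had the cord cut completely at vertebra 8, where Fluororuby, a dextran dye carried back along axons, marked brain neurons that project there. Fluoroemerald, a second dye, was placed 4 mm beyond the cut 3 weeks later, and brains were dissociated and sorted after 1 more week. Regenerated neurons had grown an axon to the second dye, and nonregenerated neurons had not. Unlesioned fish received Fluororuby at that vertebra only, and their neurons were sorted after 1 week, so time since the first dye differed between lesioned and unlesioned groups. Each group had 3 arrays, labelled as biological replicates. The sources used here do not give the strain, the age beyond adult, the number of fish in an array or whether both lesioned groups came from the same fish.

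The enzyme takes electrons from cytochrome c, passes them to oxygen and moves protons across the inner mitochondrial membrane. Its catalytic core is encoded by mitochondrial DNA, and around it sit small subunits encoded in the nucleus, several of which exist as isoforms made by different genes. In mammals subunit 4 is needed for assembly and for inhibition of the enzyme by ATP. There isoform 1 is found in most tissues, and isoform 2 is known from lung and from cells at low oxygen. Subunit 6b lies on the side that faces the intermembrane space, where cytochrome c docks. Neurons are known to rely heavily on this pathway for the energy of firing and transport.

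The deposited values are log2 differences of an array from the median of that probe set over the 9 arrays, so they show no absolute level, and neither the presence of a gene nor an order of abundance between genes can be read from them. They cannot show a marker to be absent either, so the label of neuron was set beside the relative values of its markers only. The mean of the 18 probe sets of 11 measured pan-neuronal genes, of 24 listed, ran from 0.15 to 0.40 in regenerated, from -0.85 to -0.28 in nonregenerated and from 0.12 to 0.25 in unlesioned arrays. The regenerated arrays were the most spread, with an SD over probe sets of 0.594 to 0.650, against 0.394 to 0.427 in nonregenerated and 0.349 to 0.430 in unlesioned arrays. The median reading of 22 negative control probe sets was 0.48, 0.04 and 0.28 in regenerated arrays 1, 2 and 3. It ran from -0.16 to -0.00080 in nonregenerated and from -0.13 to 0.08 in unlesioned arrays.

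The isoform gene cox4i1l was high in all 3 regenerated arrays, at 1.92, 2.30 and 1.94. It read -0.67, -0.29 and -0.66 in nonregenerated arrays and 0.00, 0.10 and -0.20 in unlesioned arrays. The regenerated arrays lay far above the other 6, and every nonregenerated array also lay below every unlesioned array. The group means were 2.06 ± 0.21, -0.54 ± 0.22 and -0.04 ± 0.15 in regenerated, nonregenerated and unlesioned neurons (SD, n = 3 each). The log2 difference was 2.60 ± 0.20 between regenerated and nonregenerated neurons (± SE of the fit here and below), which is 6.05-fold. It was 2.09 ± 0.20, or 4.26-fold, between regenerated and unlesioned neurons. Counted down from the largest positive difference, it ranked 42 of 15502 probe sets in the first comparison and 57 in the second.

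The second isoform gene, cox4i2, was low in the regenerated arrays but spread widely, at -0.39, -1.49 and -2.28. It read 0.18, 0.48 and 0.54 in nonregenerated arrays and -0.20, 0.00 and 0.31 in unlesioned arrays. Every regenerated array lay below the other 6, though regenerated array 1 was close to the lowest unlesioned array, and the nonregenerated and unlesioned arrays overlapped. The means were -1.39 ± 0.95, 0.40 ± 0.19 and 0.04 ± 0.26 in regenerated, nonregenerated and unlesioned neurons (SD, n = 3 each). The log2 difference was -1.79 ± 0.41 (3.45-fold lower) in regenerated against nonregenerated neurons and -1.43 ± 0.41 (2.69-fold lower) against unlesioned neurons. Leaving out regenerated array 1 gave -2.29 and -1.93, and leaving out regenerated array 3 gave -1.34 and -0.98.

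The subunit 6b gene cox6b1 ran beside cox4i1l. It read 1.28, 2.26 and 1.95 in regenerated arrays, -0.63, -0.33 and -0.67 in nonregenerated arrays, and -0.04, 0.00 and 0.23 in unlesioned arrays. The 3 groups did not overlap, with regenerated arrays highest and nonregenerated arrays lowest. The means were 1.83 ± 0.50, -0.54 ± 0.18 and 0.07 ± 0.15 in regenerated, nonregenerated and unlesioned neurons (SD, n = 3 each). The log2 difference was 2.37 ± 0.26, or 5.19-fold, in regenerated against nonregenerated neurons, and 1.77 ± 0.26, or 3.40-fold, against unlesioned neurons.

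**Figure D1:**
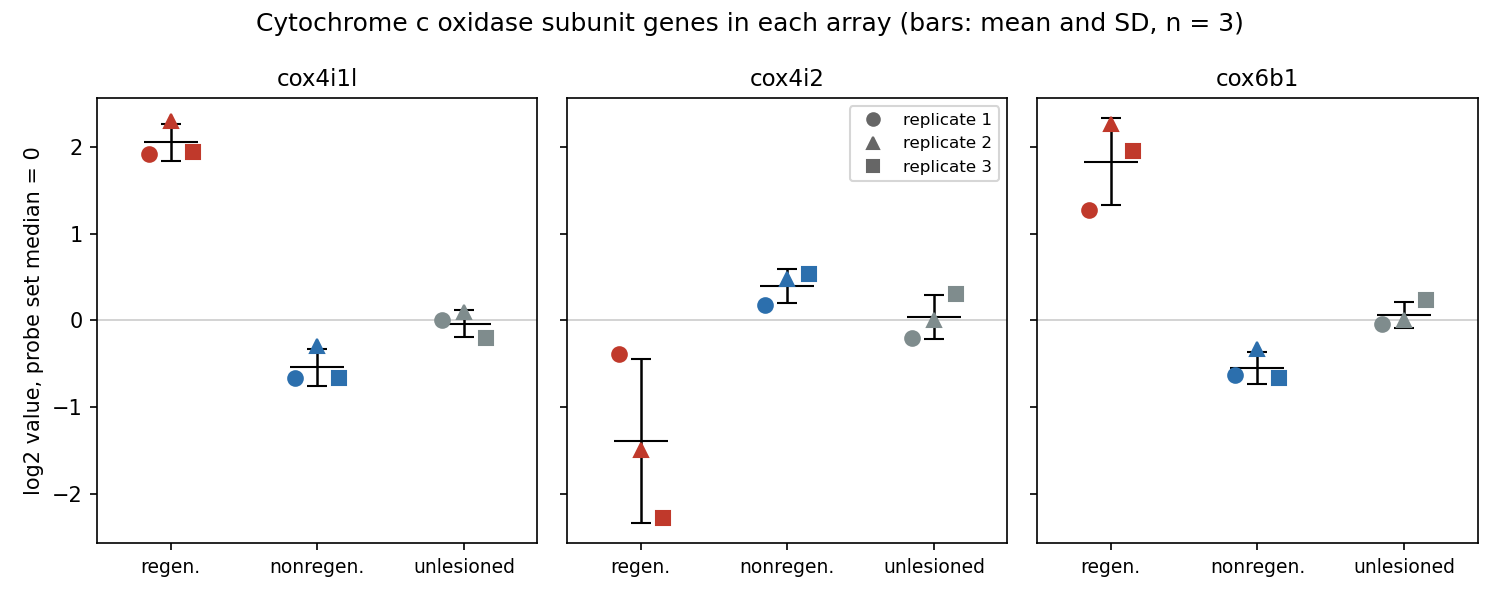
Log2 value of cox4i1l, cox4i2 and cox6b1 in each of the 9 arrays (vertical axis, median of each probe set over the arrays set to 0), by group (horizontal axis). Points are arrays, with a marker shape for each replicate number, and bars are the mean and SD of 3 arrays. The regenerated arrays lie between 1.28 and 2.30 for cox4i1l and cox6b1 and between -2.28 and -0.39 for cox4i2.

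The opposite course of the subunit 4 genes can be read within each array as cox4i1l minus cox4i2. This log2 difference between the centred values was 2.31, 3.79 and 4.23 in regenerated arrays 1, 2 and 3. It ran from -1.20 to -0.77 in nonregenerated arrays and from -0.51 to 0.20 in unlesioned arrays. The mean was thus 4.38 higher in regenerated than in nonregenerated neurons and 3.52 higher than in unlesioned neurons. Among the regenerated arrays the values of cox4i2 spanned 1.89 and those of cox4i1l 0.38. The order of the group means was regenerated, unlesioned, nonregenerated from the top for cox4i1l and cox6b1, as for 26% of all probe sets. It was the reverse for cox4i2, as for 17.3%. The first order was also that of 9 of 15 probe sets of the other oxidase subunits and 42 of 66 of the other respiratory complexes. None of either had the reverse order.

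By limma's fit across all probe sets, 162 of 15502 probe sets were called higher in regenerated than in nonregenerated neurons, or 1.05%, and 218 lower, or 1.41%, at a Benjamini-Hochberg adjusted p under 0.05. Against unlesioned neurons these were 135 (0.871%) and 209 (1.35%). In either direction 2.45% were called in the first comparison and 2.22% in the second. The groups did not overlap in 21.8% of probe sets in the first comparison (12.5% higher, 9.24% lower) and in 19.6% in the second (10.5% higher, 9.13% lower), and all 3 genes were among these in both. An unadjusted p under 0.05 was found for 16.2% and 14.9%. Both cox4i1l and cox6b1 were among the higher calls in both comparisons, and cox4i2 was among the lower calls in neither. The same contrasts chose the genes, so these calls are a description and no test of them. That of cox6b1 against unlesioned neurons was lost without unlesioned array 2 or 3, where its difference was 1.73 and 1.85. Without regenerated array 1, cox4i2 was called lower in both comparisons. With all 9 arrays, each centred on its 75th percentile, it was called lower against nonregenerated neurons. Its place outside the calls thus depended on regenerated array 1 and, in that comparison, also on the settings.

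Between nonregenerated and unlesioned neurons no probe set of 15502 was called by limma, 0% in either direction, and 790, or 5.10%, had an unadjusted p under 0.05. The log2 difference of nonregenerated from unlesioned neurons was -0.51 ± 0.20 for cox4i1l, -0.61 ± 0.26 for cox6b1 and 0.36 ± 0.41 for cox4i2. The share of probe sets without overlap was 11.1% here (5.24% higher, 5.9% lower), and cox4i1l and cox6b1 were among the lower ones. All comparisons that involve a shared group use the same 3 arrays of it.

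The other subunits of the enzyme were not used in choosing the 3 genes, and 15 probe sets of 13 genes were measured. Of these, 14 had a higher mean in regenerated than in nonregenerated neurons, where 55.7% of all probe sets did, and all 15 did against unlesioned neurons, where 56.0% of all did. Their median log2 difference was 0.69 and 0.59 in the 2 comparisons, beside 0.06 and 0.05 over all probe sets. By limma 2 of the 15 were called higher against nonregenerated neurons, where 1.05% of all probe sets were. Against unlesioned neurons 1 was called higher, where 0.871% of all were. None was called lower in either comparison, where 1.41% and 1.35% of all were. In the nonregenerated to unlesioned comparison their median was -0.11 with none called and 1 at an unadjusted p under 0.05.

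The largest rise was that of ndufa4b. Its mammalian counterpart was first assigned to the NADH dehydrogenase and was later found in cytochrome c oxidase. It read 1.58, 2.00 and 1.52 in regenerated arrays, -0.43, -1.45 and -1.74 in nonregenerated arrays, and -0.81, 0.00 and 0.01 in unlesioned arrays. All regenerated arrays lay above the other 6. It rose by 2.90 ± 0.36 against nonregenerated neurons (limma adjusted p = 0.00544) and by 1.97 ± 0.36 against unlesioned neurons (adjusted p = 0.0315). The first call was kept without any single array, and its highest adjusted p under any alternative was 0.0335. The second was lost without any 1 of the 3 regenerated arrays (2.03, 1.82 and 2.06), the 3 unlesioned arrays (1.69, 2.10 and 2.11) or nonregenerated array 2 (1.97). Its adjusted p lay between 0.00525 and 0.109 under the alternatives.

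The paralogue ndufa4a was not called. It read 0.00, -0.49 and 0.68 in regenerated arrays, -0.12, 0.70 and 0.64 in nonregenerated arrays, and -0.09, -0.25 and 0.15 in unlesioned arrays, so the groups overlapped throughout. Its log2 difference was -0.35 ± 0.33 against nonregenerated neurons (limma adjusted p = 0.635) and 0.13 ± 0.33 against unlesioned neurons (adjusted p = 0.886). Within an array, ndufa4b minus ndufa4a was 1.64 ± 0.83 in regenerated, -1.61 ± 1.14 in nonregenerated and -0.20 ± 0.49 in unlesioned neurons (SD, n = 3 each). A two-sided exact permutation test over arrays gave p = 0.1 in both comparisons with regenerated neurons, the smallest that 3 arrays against 3 allow, and 0.2 after adjustment over the 4 pair comparisons tested.

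Both measured genes of subunit 5a were higher in regenerated neurons without being called. There, cox5ab and cox5aa differed from nonregenerated neurons by 1.06 ± 0.36 and 0.69 ± 0.19 (limma adjusted p = 0.178 and 0.109). Within an array, cox5ab minus cox5aa was 0.53 ± 0.36 in regenerated, 0.15 ± 0.25 in nonregenerated and -0.30 ± 0.62 in unlesioned neurons (SD, n = 3 each; two-sided exact permutation p = 0.2 in each comparison with regenerated neurons, adjusted p = 0.2). For subunit 6b, cox6b2 read 0.26, 0.52 and 0.21 in regenerated arrays, -0.06, -0.45 and 0.00 in nonregenerated arrays, and -0.32, -0.54 and 0.08 in unlesioned arrays. Regenerated arrays were highest, by 0.50 ± 0.22 against nonregenerated neurons (adjusted p = 0.301) and 0.59 ± 0.22 against unlesioned neurons (adjusted p = 0.25), neither called. The excess of cox6b1 over cox6b2 within an array was 1.5 ± 0.42 in regenerated, -0.37 ± 0.43 in nonregenerated and 0.32 ± 0.19 in unlesioned neurons (SD, n = 3 each), given without a test.

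**Figure D2:**
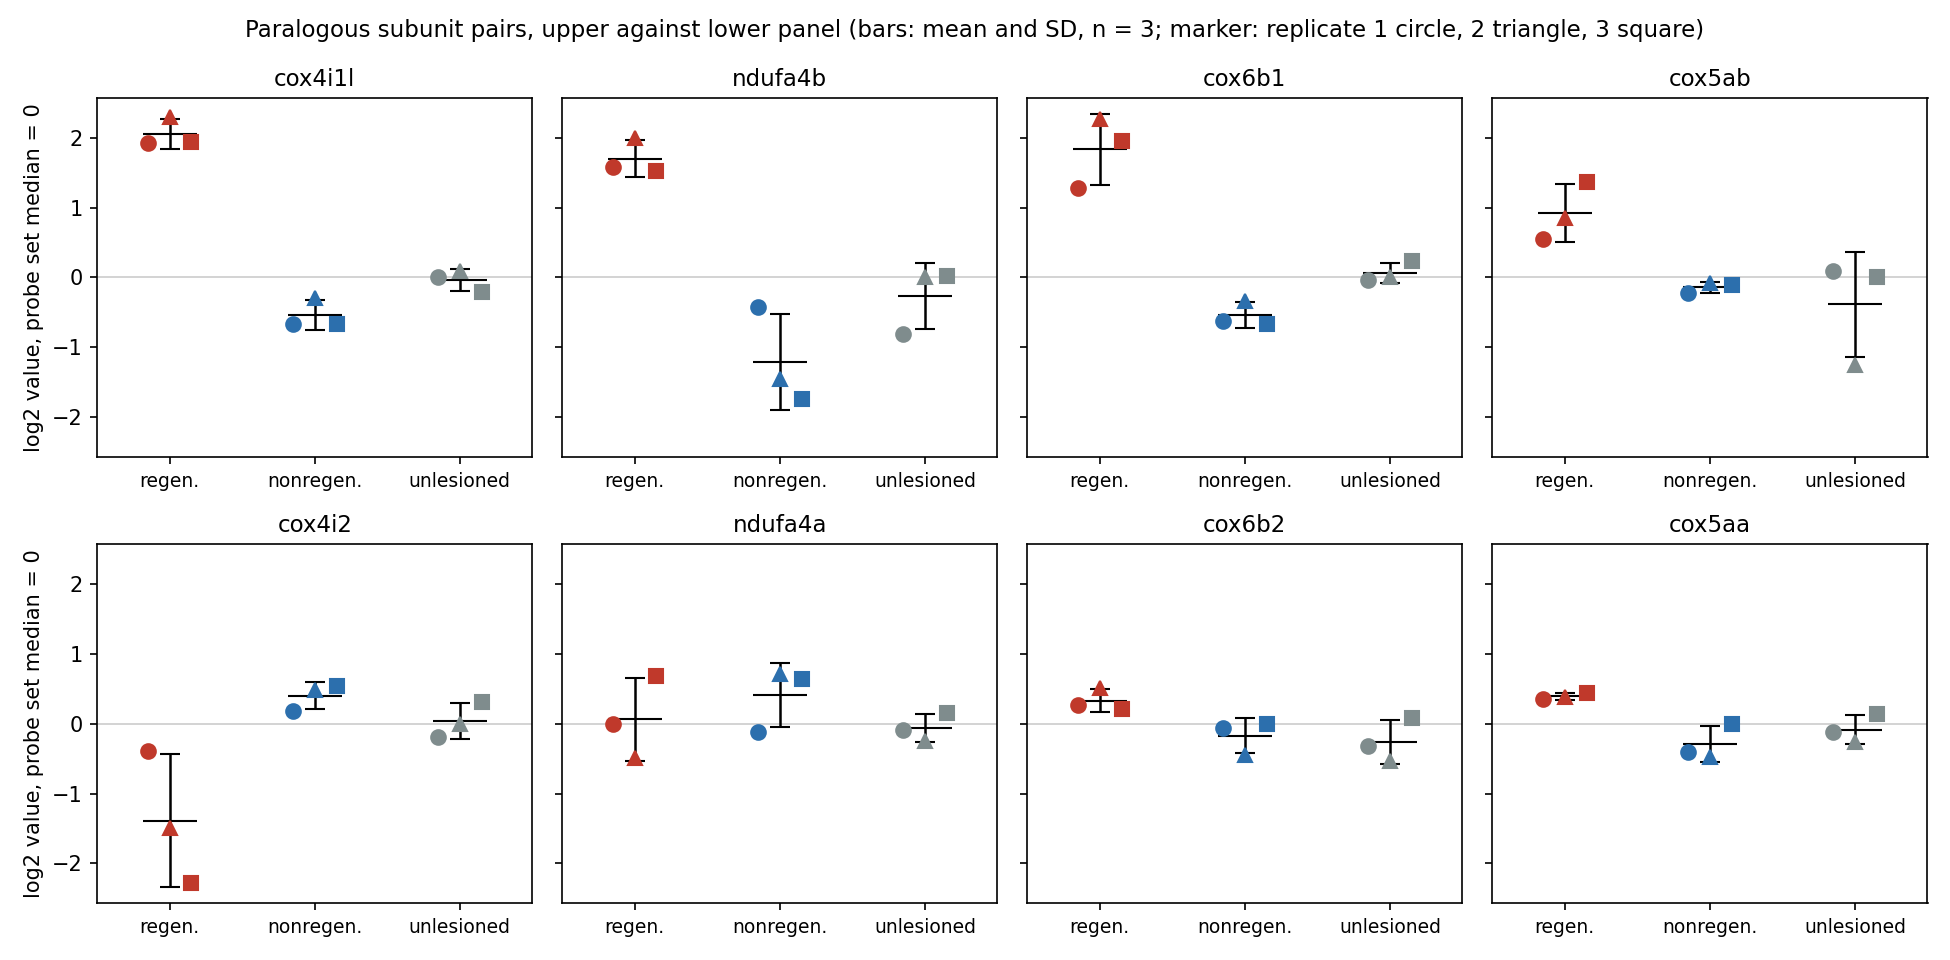
Log2 values (vertical axis, median of each probe set set to 0) of 4 pairs of paralogous subunit genes, the first of a pair in the upper row and the second in the lower, by group (horizontal axis). Points are arrays and bars the mean and SD of 3 arrays. In the upper row the regenerated arrays lie above the other arrays for each gene, and in the lower row cox4i2 lies below and ndufa4a overlaps.

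Among the rest, cox5ba, which encodes the zinc-binding subunit 5b, was the other called gene. It read 0.50, 1.05 and 1.00 in regenerated arrays, -0.65, -0.44 and -0.30 in nonregenerated arrays, and 0.00, -0.59 and 0.22 in unlesioned arrays. It rose by 1.32 ± 0.25 against nonregenerated neurons (limma adjusted p = 0.0326), and its difference from unlesioned neurons was 0.97 ± 0.25, not called (adjusted p = 0.104). The call was lost without regenerated array 2 (1.21) or 3 (1.24) and without nonregenerated array 1 (1.22), 2 (1.33) or 3 (1.40). Its adjusted p lay between 0.0224 and 0.104 under the alternatives. The count of 2 called probe sets became 1 without any of these 5 arrays, and 3 without regenerated array 1 or unlesioned array 2. The small structural subunits came next without being called, with cox7a2a at 1.21 ± 0.31, cox6a1 at 1.08 ± 0.27 and cox7b at 0.93 ± 0.23 (adjusted p = 0.0765, 0.0728 and 0.0756). The core subunit COX1, encoded in mitochondrial DNA, had 3 probe sets with differences of 0.24 to 0.45 against nonregenerated neurons and of 0.14 to 0.27 against unlesioned neurons, none called.

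**Figure D3:**
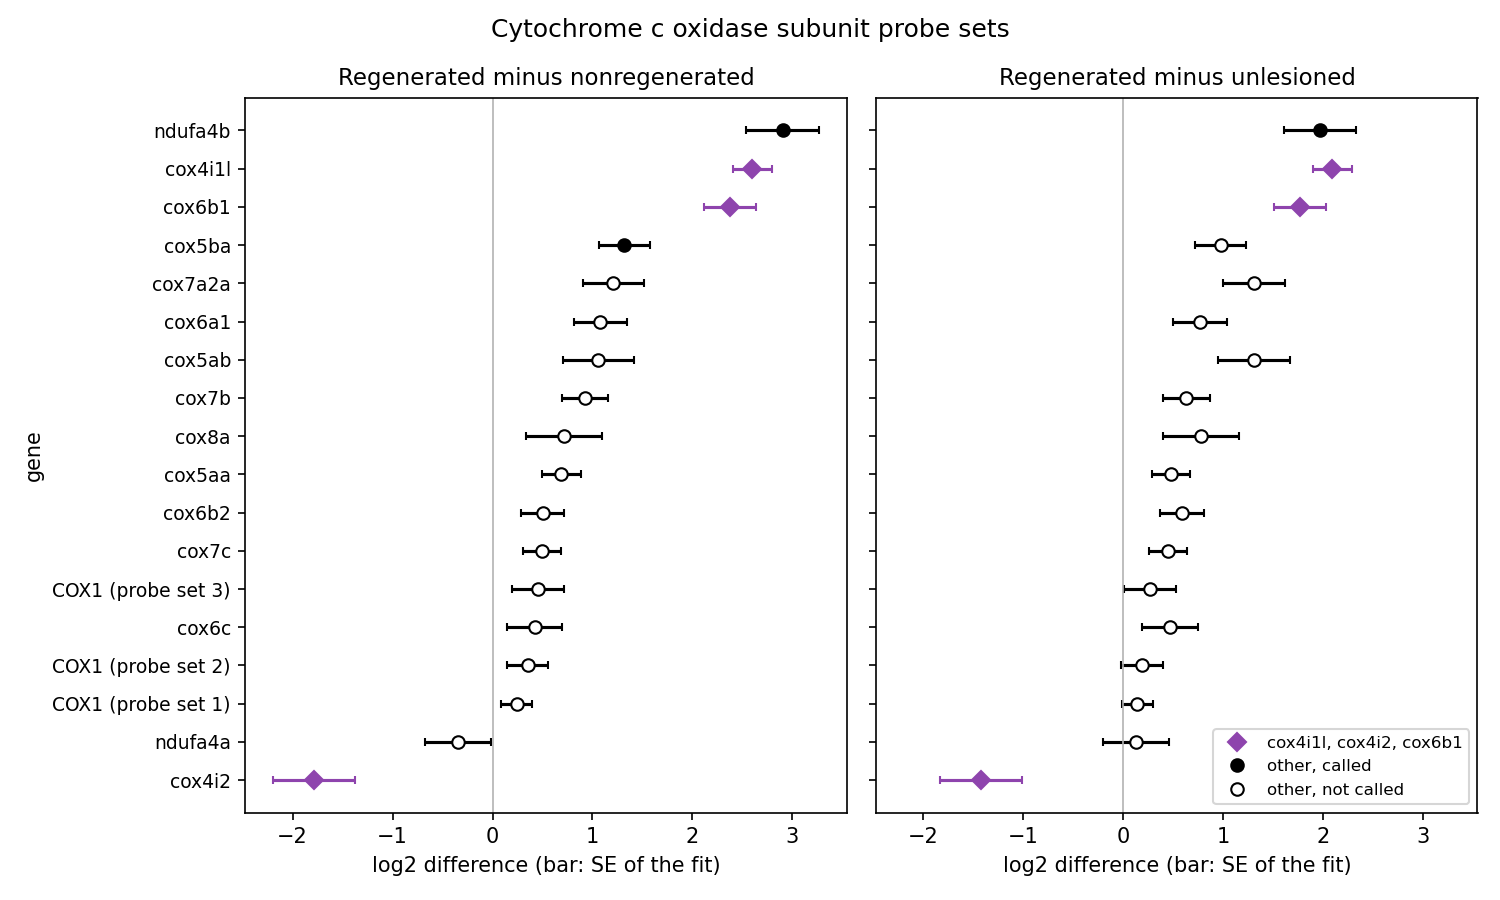
Log2 differences (horizontal axis) of the 18 cytochrome c oxidase subunit probe sets (vertical axis, ordered by the left panel) between regenerated and nonregenerated (left) and regenerated and unlesioned neurons (right), with bars for the SE of the fit. Diamonds are cox4i1l, cox4i2 and cox6b1, filled circles other probe sets called by limma, and open circles those not called. All but ndufa4a and cox4i2 lie above 0 in the left panel, and all but cox4i2 in the right.

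In the other complexes of the chain small shifts in one direction were found and no calls. There were 66 probe sets for NADH dehydrogenase, succinate dehydrogenase, the cytochrome bc1 complex with cytochrome c, and ATP synthase. All 66 had a higher mean in regenerated than in nonregenerated neurons, where 55.7% of all probe sets did. None was called, where 1.05% of all probe sets were called higher. Regenerated array 1 did not share all of the shift. For complex I the list mean was -0.17, 0.59 and 0.60 in regenerated arrays 1, 2 and 3. It ran from -0.36 to 0.05 in nonregenerated and from -0.17 to 0.05 in unlesioned arrays. For ATP synthase it was 0.0056, 0.53 and 0.62, from -0.45 to 0.16 and from -0.28 to 0.03 in the same order. In complexes II and III array 1 read 0.16 and 0.23, above every nonregenerated array. Median log2 differences were 0.47 over 35 probe sets of complex I, 0.60 over 4 of complex II, 0.61 over 10 of complex III and cytochrome c, and 0.58 over 17 of ATP synthase. The largest single difference among the 66 was 1.12, for the complex I gene ndufb5. The smallest p-values were those of ndufa9a and ndufs5 in complex I (0.87 ± 0.24 and 0.92 ± 0.28, adjusted p = 0.0989 and 0.136), and sdhc and sdhdb in complex II (1.05 ± 0.35 and 0.70 ± 0.31, adjusted p = 0.169 and 0.304). In the last 2 groups they were those of cycsb, a cytochrome c gene, and cyc1 (0.81 ± 0.19 and 0.91 ± 0.22, adjusted p = 0.0637 and 0.0687), and the ATP synthase genes atp5f1c and atp5f1e (0.73 ± 0.22 and 0.84 ± 0.25, adjusted p = 0.128 and 0.131). Against unlesioned neurons 62 of the 66 had a higher mean, where 56% of all probe sets did, and none was called. Higher calls made up 0.871% of the 15502 probe sets there, and lower calls 1.35%.

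**Figure D4:**
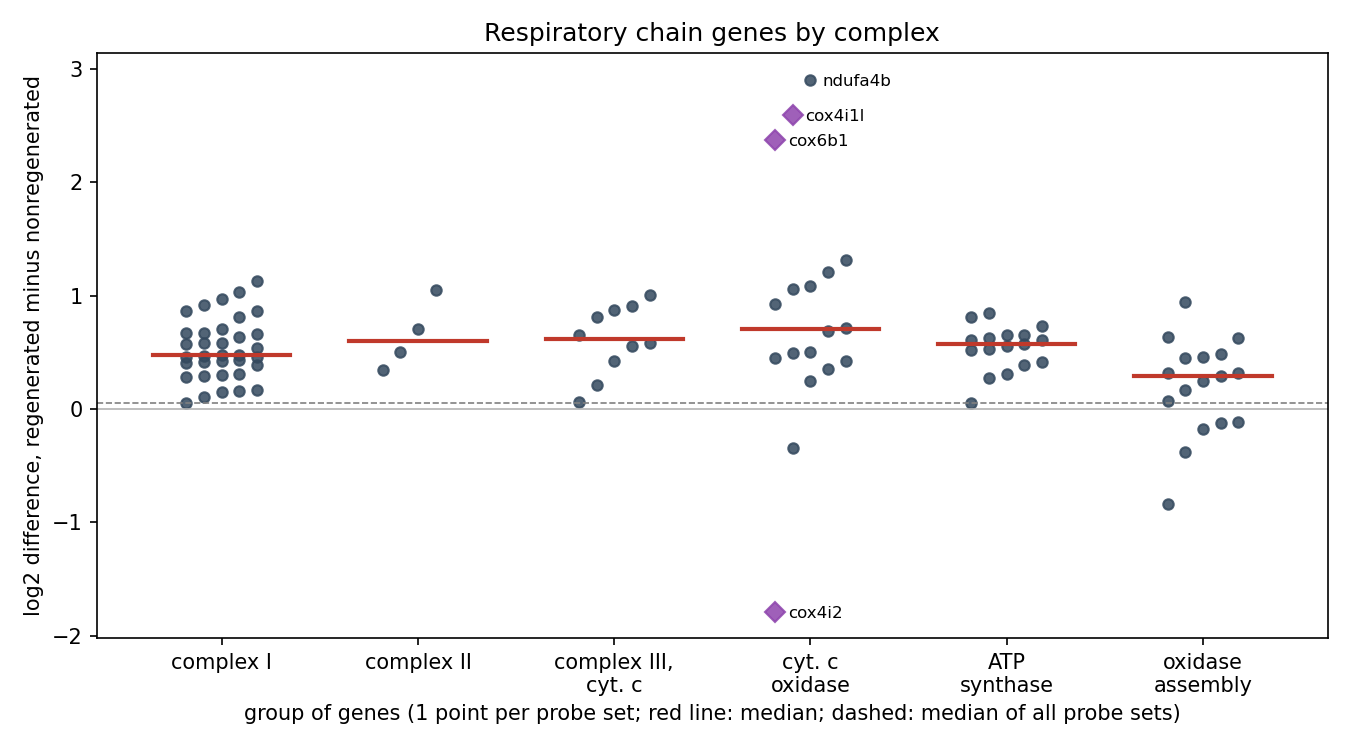
Log2 difference between regenerated and nonregenerated neurons (vertical axis) of the probe sets of each respiratory complex and of oxidase assembly factors (horizontal axis), 1 point per probe set, with red lines for medians and a dashed line for the median of all 15502 probe sets. The genes cox4i1l, cox6b1 and ndufa4b lie above 2, cox4i2 lies at -1.79, and every probe set of complexes I, II, III and ATP synthase lies between 0.05 and 1.12.

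Factors that assemble the oxidase and deliver its copper showed no call. The list also held timmdc1, which in mammals helps to assemble complex I. Its probe sets differed by 0.17 ± 0.33 and -0.12 ± 0.33 from nonregenerated neurons. With timmdc1 included, of 17 probe sets of 14 genes, 12 had a higher mean in regenerated than in nonregenerated neurons, with a median of 0.29. Over all probe sets 55.7% did. Higher calls made up 1.05% of the 15502 probe sets in this comparison and lower calls 1.41%. The lack of calls among 17 probe sets thus says little. The smallest p-values belonged to cox7a2l, which in mammals joins the oxidase to complex III (0.94 ± 0.31, adjusted p = 0.158), and to the copper factor cox11 (-0.84 ± 0.28, adjusted p = 0.173). Against unlesioned neurons the median was 0.31, with 14 of 17 higher, where 56% of all probe sets were, and none called. There the shares of higher and lower calls over the 15502 probe sets were 0.871% and 1.35%.

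The genes whose course over the 9 arrays was closest to each of the 3 were found by the root mean square difference in log2 value after centring each probe set on its mean. For cox4i1l the closest gene was ywhaz, a 14-3-3 adaptor protein, at 0.16, followed by cox6b1 at 0.26, nme2b.2, a nucleoside diphosphate kinase, at 0.28, the lactate dehydrogenase ldhbb at 0.29 and the calcineurin catalytic gene ppp3cb at 0.30. For cox6b1 it was again ywhaz, at 0.24, then cox4i1l at 0.26, arhgap21b at 0.31, mtfr1l at 0.32 and si:ch73-111k22.2 at 0.33. Thus cox4i1l and cox6b1 were each the second closest gene to the other among 8793. Both were chosen from changes over these same groups, so a small distance between them was partly set by that choice. For cox4i2 the closest were abat, the enzyme that breaks down GABA, at 0.21, gpm6ab at 0.31, cldn12 at 0.31, the inhibitor of differentiation gene id3 at 0.32 and the nuclear import gene kpna2 at 0.33. Closest to cox4i2 with its sign turned were ppp3r1b, a calcineurin regulatory gene, at 0.24, sh3bp5b, nup93, tex9 and flt4 at 0.25 each, while cox4i1l was not among them. Closest to the sign-turned course of cox4i1l were ect2 and lemd1 at 0.27 each, rgmd at 0.28, si:ch211-212k18.5 at 0.31 and spred1 at 0.31. Those of cox6b1 were notch3 at 0.28, ect2 at 0.29, rgmd and spred1 at 0.30 each, and the sodium pump gene atp1a1b at 0.33.

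Markers of some cell types set the regenerated arrays apart, and those of others followed another order. The list mean in regenerated, nonregenerated and unlesioned neurons was 0.14, 0.14 and -0.09 for microglia and leukocytes. It was -0.08, -0.31 and 0.61 for cerebellar granule cells and 0.02, -0.51 and 0.88 for erythroid cells. Muscle markers read 0.20, 0.0029 and -0.03. In bulk samples of sorted cells, fewer cells of a type and less RNA per cell cannot be told apart. The mean over 25 probe sets of 18 measured markers of radial glia and astroglia, of 26 listed, ran from -1.58 to -0.71 in regenerated, from 0.01 to 0.39 in nonregenerated and from 0.03 to 0.38 in unlesioned arrays. Over all probe sets, limma called 1.41% lower and 1.05% higher against nonregenerated neurons, and 1.35% and 0.871% against unlesioned neurons. Of the 25, 6 fell and none rose against nonregenerated neurons, and 7 fell and none rose against unlesioned neurons. In the first comparison the transcription factor genes sox9b at -3.93 ± 0.36 and -1.82 ± 0.26 (2 probe sets), sox9a at -2.44 ± 0.24 and her6 at -1.92 ± 0.27 had the smallest p-values. The mean over 8 oligodendrocyte markers, of 20 listed, ran from -1.95 to -1.17, from 0.09 to 0.24 and from 0.15 to 0.53 in the same order of groups, with 4 lower and none higher, sox10 at -3.15 ± 0.39, gpm6bb at -3.17 ± 0.43, olig2 at -3.35 ± 0.46 and nkx2.2a at -1.85 ± 0.29. The mean over 15 probe sets of 12 Purkinje cell markers, of 19 listed, ran from 1.35 to 1.83, from -0.59 to -0.24 and from -0.07 to 0.53, with 6 higher and none lower, pvalb7 at 5.96 ± 0.54, pcp4l1 at 5.21 ± 0.53 and ca8 at 3.91 ± 0.43 and 3.90 ± 0.49 (2 probe sets) having the smallest p-values. Against unlesioned neurons 4 of the 8 oligodendrocyte probe sets were called lower and 5 of the 15 Purkinje cell probe sets higher. Of the 15, 3 lay below 0 against nonregenerated neurons, and 5 did against unlesioned neurons. Among these the transcription factor genes rorab and foxp2 were lower in regenerated neurons with no overlap. They differed by -0.71 ± 0.18 and -0.98 ± 0.32 from nonregenerated neurons and were not called (limma adjusted p = 0.0792 and 0.156). Over all probe sets 9.24% were lower without overlap in that comparison. Among the pan-neuronal markers 4 of 18 probe sets rose against nonregenerated neurons and none fell, gng3 at 1.72 ± 0.18 and 1.00 ± 0.17, atp1a3b at 3.48 ± 0.45 and snap25b at 2.06 ± 0.41. Against unlesioned neurons 2 of the 18 rose and none fell, the median was 0.02 and 7 lay below 0. Of the 4 probe sets of the RNA-binding protein gene elavl3, 3 did not overlap with unlesioned arrays and were lower. These 3 differed by -1.02 ± 0.34, -0.92 ± 0.32 and -0.73 ± 0.22, none called (limma adjusted p = 0.197, 0.208 and 0.161). Over all probe sets 9.13% were lower without overlap in this comparison. The part of these cell types in the values of cox4i1l, cox4i2 and cox6b1 was not tested.

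The mean of the endothelial markers was highest in regenerated array 1, the array in which cox4i2 was least low, though single markers differed in this. Other list means also set this array apart. Regenerated arrays 1, 2 and 3 read -0.71, -1.58 and -1.27 for radial glia and 0.24, -0.30 and -0.17 for granule cells. Erythroid markers read 0.37, -0.19 and -0.11. Array 1 was lowest of these for Purkinje cell markers (1.35, 1.83 and 1.7) and pan-neuronal markers (0.15, 0.40 and 0.24). In mammals isoform 2 of subunit 4 is also known from cells of vessel walls. The mean over 10 probe sets of 8 endothelial markers, of 21 listed, was 1.53, 0.31 and 0.28 in regenerated arrays 1, 2 and 3, from -0.08 to 0.16 in nonregenerated and from -0.09 to 0.05 in unlesioned arrays. The receptor genes flt4 and kdrl had the smallest p-values of the list against nonregenerated neurons, and neither was called (1.73 ± 0.49 and 2.18 ± 1.02, limma adjusted p = 0.109 and 0.333). In regenerated arrays 1, 2 and 3 kdrl read 4.75, 0.85 and 0.00. In the same arrays flt4 ran the other way, at 0.46, 1.70 and 2.88. The mean over 9 probe sets of 8 markers of pericytes and vascular smooth muscle, of 18 listed, was 0.45, -0.38 and -0.32 in those arrays, from 0.18 to 0.26 in nonregenerated and from -0.15 to 0.42 in unlesioned arrays. Of these 9, 1 was called against nonregenerated neurons, notch3 at -2.57 ± 0.37, where 1.41% of all probe sets were called lower. No endothelial marker was called in that comparison. The part of vessel cells, or of any other cells, in the values of cox4i2 was not tested.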

How the data were processed

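Per the labels' protocols, RNA of the sorted cells (miRNeasy Micro kit) was amplified before biotin labelling, by the Ovation Pico WTA system, and hybridized to 1 Affymetrix array per sample. The authors' deposited values are on a log2 scale and were made with RMA, per the submitters' processing notes. Its version, and the step that set the median of each probe set over the 9 arrays to 0, are not given in the sources used here. This centring leaves differences between groups as they are. Values ran from -5.52 to 5.93, and the number of arrays limits the precision.

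Of 15617 probe sets, 115 controls were left out. Of the 15502 tested, 10795 carried 1 gene symbol, 135 several and 4572 none in the platform annotation. Of these symbols 10711 were found in RefSeq's gene table (assembly GRCz12tu, used for names only), and 1 was replaced by its current form. No genome or sequence table was used, so neither coordinates nor sequences are given.

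Means of the 3 groups were fitted to all 9 arrays with limma 3.58.1 in R 4.3.3 (6 residual and 3.16 prior degrees of freedom), with two-sided p-values adjusted by Benjamini and Hochberg over all probe sets tested. The labels call the samples biological replicates and say no more of their source, so p-values measure the spread between these samples. Figures were drawn with matplotlib 3.10.9.

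The genes, lists, tests and alternatives were chosen with earlier results of these data known. Genes were named by a rule: the 3 chosen genes, called genes of the oxidase and isoforms of subunits 4 and 6b, up to 4 called genes of each other list or else the 2 of smallest p, and the 5 genes closest in course to each of the 3. The genes ndufa4a, cox5aa, cox5ab, cox7a2a, cox6a1, cox7b, COX1, ndufb5, timmdc1, rorab, foxp2, elavl3, vegfaa and lonp1 were named after their values were seen. The model was tested on simulated data.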

Additional observations from a re-analysis of the deposited data

How the results depend on the processing

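Over 9 leave-one-out fits, the log2 difference of cox4i1l from nonregenerated neurons ran from 2.47 to 2.72, that of cox4i2 from -2.29 to -1.34 and that of cox6b1 from 2.16 to 2.65. Against unlesioned neurons they ran from 1.97 to 2.16, from -1.93 to -0.98 and from 1.55 to 2.04. In nonregenerated against unlesioned neurons they ran from -0.63 to -0.44, from 0.24 to 0.50 and from -0.71 to -0.52. No value of the 3 genes changed sign under any of these fits or of the 11 other settings. The genes were chosen from changes over these same arrays, so this is a description and no test of them. A further quantile normalization, which narrows the wider regenerated arrays, gave 2.23 and 1.62 for cox4i1l in the 2 comparisons and 1.36 for cox6b1 against unlesioned neurons. With the median of the negative controls as a covariate, cox6b1 differed by 2.90 and 2.27. Without both regenerated arrays 1 and 3, where the lone array is assumed to vary like those of the other groups, cox4i1l differed by 2.84 and 2.34 and cox6b1 by 2.81 and 2.2. Centring each array on its 75th percentile moved the median difference over all probe sets by -0.12 against nonregenerated and by -0.11 against unlesioned neurons. Calls of the 3 genes over these settings are not counted, since the same contrasts chose them. Those given above for cox6b1 and cox4i2 with 1 array left out, and for cox4i2 with a changed centring, are a description only.

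The 2 other oxidase probe sets called against nonregenerated neurons ran from 1 to 3 over the leave-one-out fits, and the 1 called against unlesioned neurons from 0 to 1. They were 1 and 0 with quantile normalization, 1 and 0 without regenerated arrays 1 and 3, 1 in the first comparison with array weights, and 2 in the second with only the 11626 probe sets of highest SD kept. At an adjusted p under 0.1 they were 5 and 2, and under 0.01 they were 1 and 0. The shares of all probe sets called at these thresholds are not given here. With the replicate number as a block they were 1 and 0. The numbers were not shown to pair the samples, since deviations of same-numbered arrays correlated from -0.19 to 0.26, and an array correlated best with its own number in 5 of 18 checks. The causes of these changes were not tested.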

Other observations

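Genes induced by low oxygen were listed together with oxygen sensors and the hypoxia-inducible factors, because isoform 2 of subunit 4 is known from low oxygen in mammals. Of 33 probe sets of 26 measured genes, 1 was called higher in regenerated than in nonregenerated neurons, where 1.05% of all probe sets were. None was called lower, where 1.41% of all were. The median log2 difference was -0.07, beside 0.06 over all probe sets. Against unlesioned neurons 2 were called higher, both of pfkfb3, and none lower, where 0.871% and 1.35% of all probe sets were. The median was 0.24, beside 0.05 over all probe sets. The call against nonregenerated neurons was that of a sensor and not of an induced gene. This gene, hif1an, encodes an oxygen-dependent hydroxylase that inhibits the hypoxia-inducible factors, and it rose by 1.60 ± 0.27 against nonregenerated neurons (limma adjusted p = 0.0184). That call was lost without regenerated array 2 (1.61) and without nonregenerated array 2 (1.62). Its adjusted p lay between 0.00795 and 0.166 under the alternatives. The glycolytic regulator pfkfb3 rose by 1.65 ± 0.29 and 1.47 ± 0.31 at its 2 probe sets against unlesioned neurons (adjusted p = 0.0255 and 0.0473). The first of these was lost in 5 of 9 fits that each left out 1 array. It was lost without regenerated array 1 (1.5) or 2 (1.57) and without unlesioned array 1 (1.76), 2 (1.77) or 3 (1.43). Its limma adjusted p lay between 0.00871 and 0.128 under the alternatives. Those of the second probe set are not given here. The growth factor gene vegfaa differed by -1.51 ± 0.33 from nonregenerated neurons and was not called (adjusted p = 0.0515).

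Regulators of mitochondrial gene expression and of the subunit 4 genes in mammals showed no call. Against nonregenerated neurons, higher calls made up 1.05% of the 15502 probe sets and lower calls 1.41%. At such low shares, a lack of calls among 18 probe sets says little. Of 18 probe sets of 13 measured genes, 10 had a higher mean in regenerated than in nonregenerated neurons, with a median of 0.11. Over all probe sets 55.7% did. The smallest p-values were those of yy1a at -0.67 ± 0.23 (limma adjusted p = 0.188) and of tfam, the mitochondrial DNA packaging factor, at 0.68 ± 0.28 (adjusted p = 0.271). Another probe set of yy1a differed by -0.02 ± 0.15 (adjusted p = 0.957). The protease gene lonp1, whose product degrades isoform 1 of subunit 4 at low oxygen in mammals, differed by 0.62 ± 0.30 (adjusted p = 0.352), not called.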
